A study of Homo sapiens with 89 samples.

Results

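Transcript levels of 8 transcription factor genes that define the adrenergic state of neuroblastoma were followed across 5 groups of RNA-seq libraries. The genes PHOX2A, HAND2, GATA2, GATA3, ISL1, TBX2, SOX11 and NHLH1 were taken by symbol from the 57905 genes of the count tables, and all 8 have a row in both tables. Libraries were made from polyadenylated RNA of the human neuroblastoma cell lines IMR-32, known as an adrenergic line with amplified MYCN, and SHEP, known as a mesenchymal line without that amplification. The IMR-32 control had no doxycycline (the column names give ethanol), and the EXOSC10-depleted group had 1 µg/ml doxycycline, which switches on an shRNA against EXOSC10, a 3'-5' exonuclease of the nuclear RNA exosome. The SHEP groups were labelled no MYCN (no doxycycline), wild type MYCN and MYCN 3A (a triple mutant of MYCN that binds RNA poorly), the last pair with 1 µg/ml doxycycline to induce the construct. Each group had 3 libraries, none of the 15 had auxin treatment, and the labels do not say whether replicates were separate cultures or the engineered cells single clones. The p-values below therefore measure only the spread between these libraries, which may be technical. Doxycycline came with every induced construct, so the drug and the construct cannot be told apart in comparisons with a group without doxycycline. The wild type MYCN and MYCN 3A groups both had 1 µg/ml.

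Sympathetic neuroblasts and adrenergic neuroblastoma cells keep their identity through a set of transcription factors that bind each other's enhancers and their own. PHOX2A is a paired-like homeodomain factor that activates noradrenaline synthesis genes, HAND2 and NHLH1 are basic helix-loop-helix proteins, GATA2 and GATA3 are zinc finger factors of sympathetic differentiation, ISL1 is a LIM homeodomain factor, TBX2 is a T-box factor and SOX11 an SRY-box factor of immature neurons. Mesenchymal neuroblastoma cells are known to have low levels of most of this set and to use AP-1, RUNX and PRRX1 factors instead.

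In hg19, NHLH1 (ENSG00000171786) lies on chromosome 1 at 160336857 to 160342638, SOX11 (ENSG00000176887) on chromosome 2 at 5832799 to 5841516 and GATA2 (ENSG00000179348) on chromosome 3 at 128198270 to 128212028, the last on the minus strand. The other IDs are ENSG00000164107 for HAND2, ENSG00000016082 for ISL1, ENSG00000107485 for GATA3, ENSG00000165462 for PHOX2A and ENSG00000121068 for TBX2.

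The labels were checked on the targeted genes first. EXOSC10 was at 74.6, 64.0 and 67.1 CPM (counts scaled to a common library size with TMM factors, within each table) in the IMR-32 controls and at 49.0, 46.7 and 46.1 CPM after depletion, a log2 change of -0.54 (SE 0.08, edgeR adjusted p = 2.27e-08). MYCN did not follow its labels in SHEP: the gene row held 4, 0 and 0 counts in the libraries labelled no MYCN, 2, 0 and 0 in those labelled wild type MYCN and 10, 0 and 0 in those labelled MYCN 3A. The MYCN counts therefore do not bear out the induction in any SHEP library, and whether the construct's sequence is counted under this gene model was not tested. All SHEP directions below rest on the labels alone. In IMR-32, MYCN fell from 1097 ± 15.3 to 599 ± 5.47 CPM (SD, n = 3) on EXOSC10 depletion, a log2 change of -0.87 (SE 0.04, edgeR adjusted p = 7.53e-30).

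Libraries held 16394148 to 26193478 counts in IMR-32 and 11638859 to 15353505 in SHEP. Read ends were counted singly, so intervals and floors from counts cover counting error only and are too narrow. The 20 adrenergic effector genes (catecholamine synthesis, secretory granule and receptor genes) summed to 2987 to 3199 CPM in the IMR-32 controls and 16.1 to 19.4 CPM in SHEP without MYCN. The 18 mesenchymal factors summed to 145 to 156 CPM and 721 to 783 CPM in the same groups. The sums of both lists thus separated the lines in the directions given by their names, but not every member did. TWIST1 was at 90.3 ± 5.99 CPM in IMR-32 and 80.5 ± 1.27 CPM in SHEP. Of 16 mesenchymal factors tested between the lines, 14 were lower and 1 higher in IMR-32, where 41.4% and 46.5% of all genes were. Of the 20 effector genes, 15 were at 1 CPM or more in the IMR-32 controls, and TH and DDC were not. SOX10, the defining Schwann cell factor, had 0 counts in every IMR-32 control. Marker sums of Schwann cells were 18.3 to 24.9 CPM in IMR-32 and at most 2.74 CPM in SHEP. ERBB3, a marker in that list, rose by 1.15 on the log2 scale on EXOSC10 depletion (edgeR adjusted p = 3.89e-09), and its part in the results was not tested. Leukocyte, endothelial and epithelial sums were at most 16.6 (mostly CD68), 0.967 and 1.37 CPM in any library, and PTPRC and CD3E had 0 counts in the IMR-32 controls. In these bulk samples, fewer cells of a type and less RNA per cell cannot be told apart.

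Of the 8 factors, 7 were higher in IMR-32 and GATA2 was higher in SHEP. Compared per kilobase of exon (RPKM), the order in the IMR-32 controls was PHOX2A at 208 ± 13.01, HAND2 at 154 ± 8.26, GATA3 at 122 ± 1.07, TBX2 at 75.6 ± 2.66, SOX11 at 43.4 ± 0.797, NHLH1 at 40.1 ± 2.23, ISL1 at 29.8 ± 1.09 and GATA2 at 0.286 ± 0.0625 RPKM (SD, n = 3). In SHEP without MYCN, HAND2 led with 16.7 ± 0.983 RPKM, followed by GATA2 at 11.9 ± 1.20, TBX2 at 5.17 ± 0.810, GATA3 at 2.51 ± 0.0916 and ISL1 at 1.31 ± 0.329 RPKM. PHOX2A, SOX11 and NHLH1 were each below 0.1 RPKM there. HAND2 was thus the only member among the highest 2 in both lines, and GATA2 moved from the last place to the second.

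**Figure D1:**
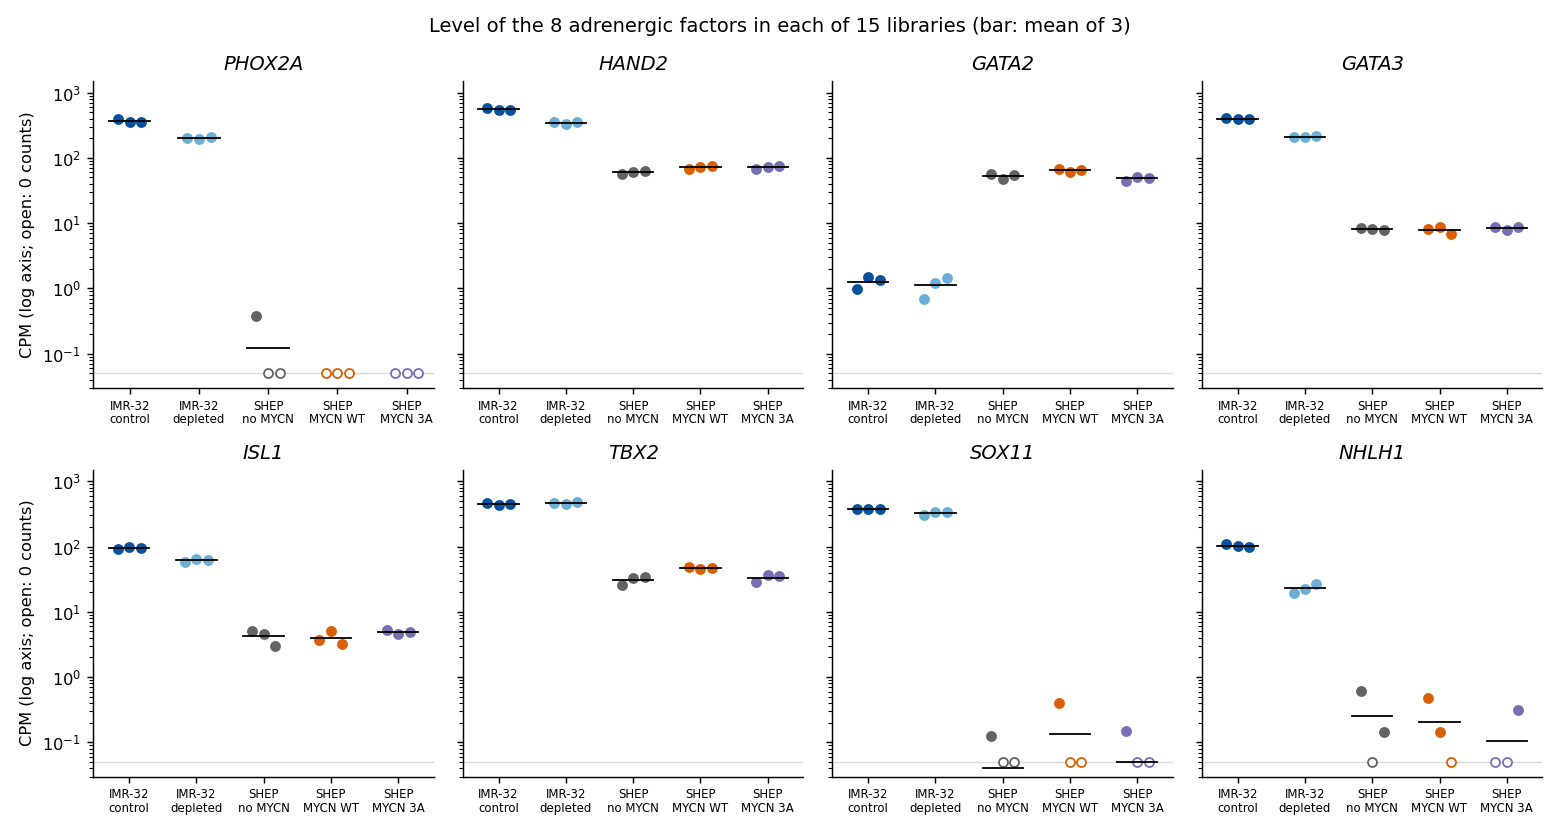
Levels of each factor in every library, in CPM on a log axis, with bars for the mean of 3 libraries and open circles for libraries with 0 counts. GATA2 alone sits higher in all 9 SHEP libraries (44.9 to 67.6 CPM) than in all 6 IMR-32 libraries (0.686 to 1.52 CPM).

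The IMR-32 control and SHEP no MYCN libraries come from separate tables, so line and table cannot be told apart in this comparison. All 8 factors differed by edgeR, 7 higher and 1 lower in IMR-32, and no factor's ranges overlapped. Of the 17657 genes tested, 87.9% were called, 46.5% higher and 41.4% lower, and 88.6% had ranges without overlap, so the count says little about these genes. The sizes were large. HAND2 was at 589, 539 and 536 CPM in IMR-32 and at 56.1, 61.1 and 62.9 CPM in SHEP, a log2 difference of 3.07 (SE 0.07, edgeR adjusted p = 4.60e-29). GATA3 differed by 5.46 (SE 0.08), ISL1 by 4.36 (SE 0.13) and TBX2 by 3.74 (SE 0.08) on the same scale. The median over the 8 was 4.91, against 0.15 over all genes tested.

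GATA2, a zinc finger factor also known from blood and endothelial cells, went against the rest of the set. Its counts were 20, 31 and 28 in the IMR-32 controls and 926, 633 and 766 in SHEP without MYCN. The scaled ratio was 42.0 in favour of SHEP (exact 95% interval 33.6 to 53.3), and the log2 difference was -5.51 (SE 0.16, edgeR adjusted p = 2.23e-25). Scaled ratios here and below used TMM factors from within each table, and edgeR used joint factors of both groups, so their sizes differ. The name adrenergic factor therefore does not describe GATA2 in this pair of lines. Endothelial markers were near 0 there: CDH5 had 0 counts in SHEP without MYCN, and the endothelial sum was at most 0.620 CPM. The opposite-strand gene GATA2-AS1 was also higher in SHEP, with 0.130 ± 0.150 CPM in IMR-32 and 6.68 ± 0.832 CPM in SHEP.

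PHOX2A, SOX11 and NHLH1 were at trace counts in SHEP. PHOX2A had 22957 counts over the 3 IMR-32 controls and 6 over the 3 SHEP libraries labelled no MYCN, a scaled ratio of 2681 (exact 95% interval 1231 to 7305). SOX11 had 23432 and 2 counts, a ratio of 8208 (2272 to 67780), and NHLH1 6373 and 12 counts, a ratio of 372 (213 to 720). These sizes rest on few counts. Without no MYCN replicate 1, PHOX2A and SOX11 had 0 counts in the remaining pair of SHEP libraries. With 3 counts over that pair in place of 0, the ratios were 3369 and 3439. As read ends were counted singly, that limit is too low, and these ratios are not strict lower bounds. NHLH1 had 2 counts and a ratio of 1403 (388 to 11590) without the same library. Without no MYCN replicate 2 or 3 the ratios were 1853 or 1823 for PHOX2A, 5675 or 5582 for SOX11 and 257 or 304 for NHLH1. The traces were uneven between libraries. PHOX2A had 6, 0 and 0 counts in the libraries labelled no MYCN and 0 in the other 6. In those 6, a limit of 3 counts equals 0.204 to 0.264 CPM, too low for the same reason. SOX11 had 2, 0 and 0, then 6, 0 and 0, then 2, 0 and 0 counts in the libraries labelled no MYCN, wild type and 3A, always in replicate 1. NHLH1 had 10, 0 and 2, then 7, 2 and 0, then 0, 0 and 4. Over 171 genes above 50 CPM in every IMR-32 library and with a median of 0 counts over the SHEP libraries, a set chosen after seeing the values, replicate 1 of the SHEP groups held 199, 134 and 143 counts and the other 6 libraries 25 to 75. Where these counts come from was not tested.

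The factors belong to families, and the lines differed in which relatives they transcribed. HAND1 was at 29.0 RPKM in IMR-32, below HAND2, and at 0 counts in SHEP. The GATA family split by line: GATA4 and GATA6, factors of heart and endoderm, had 0 counts in the IMR-32 controls and were at 1.93 and 1.39 RPKM in SHEP, while GATA1 and GATA5 had 0 counts in both groups. ISL2 was at 3.30 RPKM in IMR-32 and 3.14 RPKM in SHEP (log2 difference in counts -0.06, edgeR adjusted p = 0.770). TBX3 was at 2.92 and 1.43 RPKM, far below TBX2 in IMR-32. TBX4 was at 0.544 and 0.0224 RPKM, and TBX5 had 0 counts in both. SOX4 and SOX12, of the same SOX group as SOX11, were at 36.3 and 57.5 RPKM in IMR-32 and, unlike SOX11, still at 7.60 and 16.8 RPKM in SHEP. NHLH2 was at 1.79 RPKM in IMR-32, under NHLH1 at 40.1 RPKM, and had 0 counts in SHEP.

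**Figure D2:**
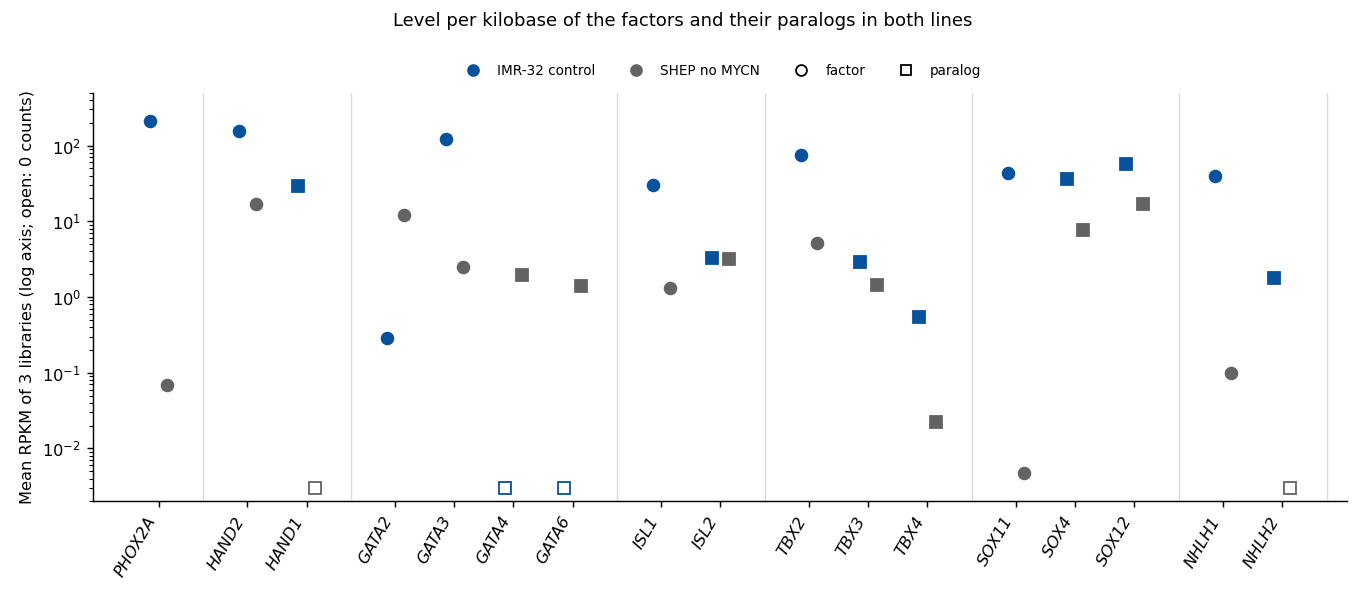
Mean RPKM of 3 libraries for the 8 factors (circles) and relatives of 6 of the families (squares) in the IMR-32 control and SHEP no MYCN groups, on a log axis with open symbols for 0 counts. GATA2, GATA4 and GATA6 are higher in SHEP, ISL2 is nearly level, and the other genes drawn are higher in IMR-32.

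On EXOSC10 depletion in IMR-32, 6 of the 8 factors fell, none rose, and GATA2 and TBX2 were not called. Among the 17103 genes tested, 27.1% were called and 13.7% fell, and the ranges of 38.4% did not overlap. The 6 called factors had ranges without overlap. The median log2 change was -0.66 over the 8 factors and -0.00 over all genes. SOX11 fell by 14.1% and NHLH1 fell by 77.6%, the ends of the range. All 6 falls kept their call under each of the 11 alternatives in normalization, filter, test, block and left-out library.

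NHLH1, a helix-loop-helix factor of newborn neurons, fell most. It was at 109, 101 and 98.4 CPM in the controls and at 19.5, 22.7 and 26.6 CPM after depletion. The highest depleted library lay far below the lowest control, with a log2 change of -2.16 (SE 0.08, edgeR adjusted p = 2.03e-33). It was the 24th lowest change of all genes tested, and the only member to fall by more than 2-fold, as 1.13% of genes did. Per kilobase it reached 8.94 ± 1.39 RPKM, next to last of the 8 and below ISL1 at 19.03 ± 0.835 RPKM.

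PHOX2A and GATA3 fell by nearly the same proportion. PHOX2A was at 397, 356 and 359 CPM in the controls and 198, 192 and 208 CPM after depletion, a log2 change of -0.89 (SE 0.05, edgeR adjusted p = 1.93e-25). GATA3 was at 401, 395 and 395 CPM and then at 209, 210 and 214 CPM, a log2 change of -0.91 (SE 0.05, edgeR adjusted p = 2.53e-27). No control library of either gene came near a depleted one, and the depleted replicates of GATA3 had an SD of 2.48 CPM. PHOX2A remained the highest of the 8 per kilobase, at 112 ± 4.55 RPKM, and GATA3, at 64.9 ± 0.762 RPKM, came below TBX2 at 77.9 ± 2.20 RPKM.

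HAND2 and ISL1, both known regulators of sympathetic neuron differentiation, fell less. HAND2 was at 589, 539 and 536 CPM in the controls and 357, 334 and 350 CPM after depletion, a log2 change of -0.68 (SE 0.04, edgeR adjusted p = 3.59e-21). ISL1 was at 92.5, 99.5 and 95.7 CPM and then at 58.5, 63.9 and 61.1 CPM, a log2 change of -0.65 (SE 0.07, edgeR adjusted p = 1.15e-12). The groups were apart in both genes. SOX11 had the smallest called fall, from 370, 382 and 382 CPM to 309, 332 and 333 CPM (log2 change -0.22, SE 0.05, edgeR adjusted p = 8.43e-05). Its highest depleted library still lay below its lowest control.

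TBX2, a T-box repressor, was at 472, 440 and 455 CPM in the controls and at 472, 455 and 481 CPM after depletion. The ranges overlapped, and the log2 change was 0.04 (SE 0.04, edgeR adjusted p = 0.516), between 0.02 and 0.07 over the 11 alternatives. GATA2 was at 0.972, 1.52 and 1.33 CPM and then at 0.686, 1.21 and 1.44 CPM, from 14 to 38 counts a library. Its log2 change of -0.19 had an SE of 0.46 (edgeR adjusted p = 0.816). A change of the size seen in PHOX2A, GATA3, HAND2, ISL1 or SOX11 was therefore not detectable at this depth. Without depleted replicate 1 the value was 0.06.

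Several of the factors share their locus with a gene on the opposite strand. The IMR-32 table does not state a strand setting, so where exons overlap the counts of both strands are less certain. Within 10 kb of the 8 factors lie 17 annotated genes, of which 11 could be tested on EXOSC10 depletion, with 4 falls and 2 rises. Among all genes tested, 13.7% fell and 13.5% rose, and with only 11 neighbours tested the count says little about them. HAND2 lies on chromosome 4 at 174446120 to 174451380 of hg19 on the minus strand, and HAND2-AS1 starts within it on the plus strand. HAND2-AS1 was as abundant in counts as HAND2, though per kilobase it was lower, at 58.3 against 154 RPKM in the controls. It fell with HAND2, from 587, 553 and 579 CPM to 420, 378 and 392 CPM (log2 change -0.53, SE 0.04, edgeR adjusted p = 1.76e-16). GATA3 lies on chromosome 10 at 8095567 to 8117161, and GATA3-AS1 starts 120 bases before it on the other strand and runs away from it. GATA3-AS1 fell from 36.0 ± 2.94 to 24.9 ± 0.622 CPM (log2 change -0.53, SE 0.10, edgeR adjusted p = 8.83e-06). At ISL1, on chromosome 5 from 50678921 to 50690564, the divergent transcript ISL1-DT fell from 39.3 ± 4.61 to 28.1 ± 1.46 CPM (log2 change -0.49, SE 0.09, edgeR adjusted p = 2.84e-05). So at each of these 3 loci both strands fell.

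The opposite strand at TBX2 did not pass the test, as TBX2 itself did not. TBX2 lies on chromosome 17 at 59477257 to 59486827, and TBX2-AS1 was at 24.4 ± 2.02 CPM in the controls and 22.4 ± 1.42 CPM after depletion (log2 change -0.12, SE 0.11, edgeR adjusted p = 0.430). A second opposite-strand gene there, ENSG00000267131, held 1 to 8 counts a library in IMR-32 beside 7529 or more for TBX2, so few reads of TBX2 were counted for that gene. At PHOX2A, on chromosome 11 from 71950121 to 71956708, the 2 strands went apart. INPPL1, a lipid phosphatase gene whose end overlaps that of PHOX2A on the other strand, rose from 489, 465 and 475 CPM to 701, 681 and 664 CPM (log2 change 0.52, SE 0.04, edgeR adjusted p = 5.30e-17) while PHOX2A fell.

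**Figure D3:**
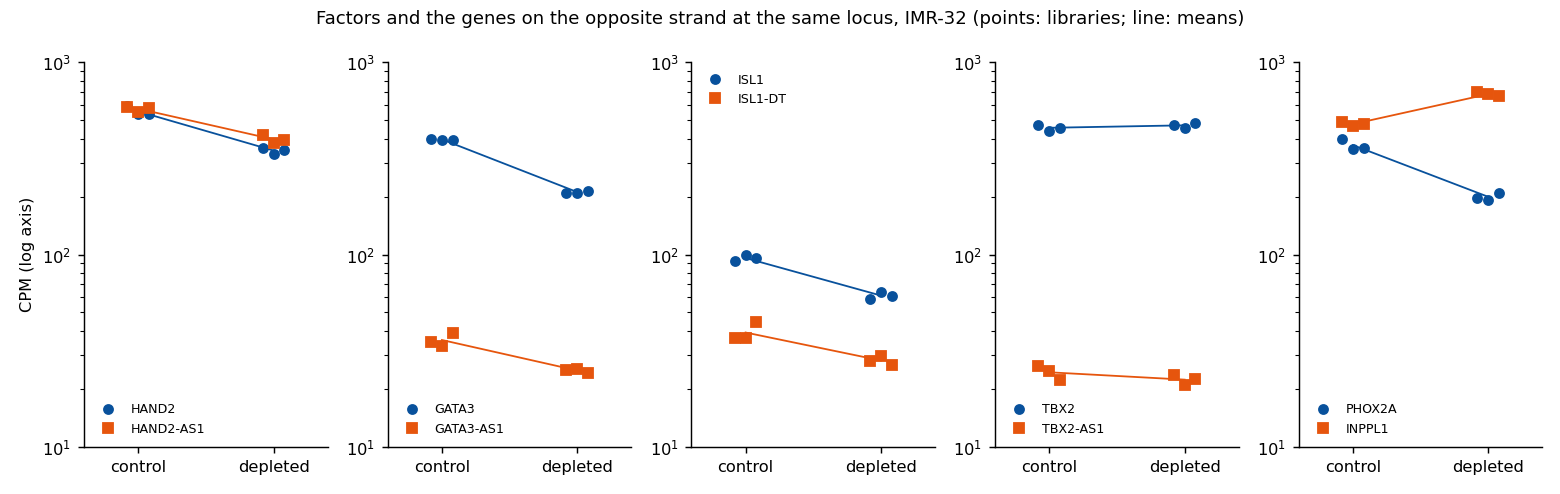
CPM on a log axis of 5 factors (circles) and the opposite-strand gene at the same locus (squares) in the IMR-32 control and depleted libraries, with lines between the group means. HAND2, GATA3 and ISL1 fall together with their partners, TBX2 and TBX2-AS1 are not called, and PHOX2A falls while INPPL1 rises. INPPL1 is the higher of the pair in CPM in both groups. Per kilobase PHOX2A is higher, at 208 against 73.1 RPKM in the controls and 112 against 105 RPKM after depletion.

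The proportion of a factor to its partner was followed as the log2 ratio of the pair in each library. These ratios are given as a description, since the smallest p that an exact two-sided permutation test of 3 against 3 libraries allows is 0.1. The ratio of GATA3 to GATA3-AS1 was 3.52, 3.55 and 3.33 in the controls and 3.06, 3.04 and 3.14 after depletion, a difference of -0.39. The ratio of PHOX2A to INPPL1 was -0.30, -0.39 and -0.41 in the controls and -1.82, -1.83 and -1.67 after depletion, a difference of -1.41. The ranges did not overlap in either pair, nor for HAND2 to HAND2-AS1, which differed by -0.15. The share of all gene pairs with such ranges was not computed. The ratios of ISL1 to ISL1-DT and of TBX2 to TBX2-AS1 differed by -0.17 and 0.17, with ranges that overlapped.

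Of the other neighbours, LINC02875 beyond the end of TBX2 rose from 0.419 ± 0.108 to 1.57 ± 0.477 CPM (log2 change 1.89, SE 0.53, edgeR adjusted p = 0.00378). ENSG00000243350, beside GATA3 on the strand of GATA3-AS1, fell by 0.70 on the log2 scale (SE 0.19, edgeR adjusted p = 0.00268), and it was not called without depleted replicate 3 (adjusted p = 0.0568). NCSTN near NHLH1, BCAS3 near TBX2, ENSG00000242540 at SOX11 and ENSG00000232638 at GATA3 were not called, with log2 changes of -0.04, -0.11, 0.22 and 0.42. LINC01248, ENSG00000230090, DNAJB8-AS1, GATA2-AS1, ENSG00000228286 and ENSG00000267131 had too few counts in IMR-32 to be tested.

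The windows around the annotated starts (250 bases before to 50 after, from RefSeq on GRCh38.p14) are shown for NHLH1, whose fall was the largest, and for the windows that HAND2 and GATA3 share with their opposite-strand partners, since both strands fell there. RefSeq windows were at hand for 6 of the 8 factors, 12 windows in all. TBX2 and SOX11 had no entry. The HAND2 window overlaps that of HAND2-AS1 by 272 bases, and the GATA3 window those of GATA3-AS1 by 256 to 291 bases. Capitals mark matches to any of 5 hexamers searched on both strands. These were the palindromic E-box CACGTG and the palindromic E-box CAGCTG. The others were the E-box CAGATG, the GATA motif AGATAA and the homeodomain core TAATTA.
NHLH1, chr1:160366821-160367120, plus strand: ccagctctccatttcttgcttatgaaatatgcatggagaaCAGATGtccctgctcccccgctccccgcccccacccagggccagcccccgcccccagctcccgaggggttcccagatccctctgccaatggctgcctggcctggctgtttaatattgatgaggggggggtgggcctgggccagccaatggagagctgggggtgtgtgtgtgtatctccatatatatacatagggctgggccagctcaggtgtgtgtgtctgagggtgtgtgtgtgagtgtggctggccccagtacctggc
HAND2, chr4:173530180-173530479, minus strand: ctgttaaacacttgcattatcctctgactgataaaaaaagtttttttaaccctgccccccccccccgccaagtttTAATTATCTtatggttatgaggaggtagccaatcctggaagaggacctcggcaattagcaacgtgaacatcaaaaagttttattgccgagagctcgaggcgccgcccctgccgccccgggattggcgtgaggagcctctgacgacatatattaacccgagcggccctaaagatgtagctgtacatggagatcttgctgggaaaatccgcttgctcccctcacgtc
GATA3, chr10:8053391-8053690, plus strand: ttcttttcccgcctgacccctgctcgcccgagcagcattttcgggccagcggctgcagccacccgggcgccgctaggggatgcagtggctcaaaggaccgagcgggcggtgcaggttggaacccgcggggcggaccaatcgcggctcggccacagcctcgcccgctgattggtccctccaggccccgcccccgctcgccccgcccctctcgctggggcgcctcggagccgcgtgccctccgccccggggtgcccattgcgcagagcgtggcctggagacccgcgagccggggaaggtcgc

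In these windows NHLH1 held 1 match, HAND2 held a homeodomain core and a GATA motif that overlap, and the GATA3 window held none of the 5 hexamers. The windows differed in base composition, with 61.0% G and C for NHLH1, 50.3% for HAND2 and 74.7% for GATA3. Over all 12 windows, CACGTG, the form that MYC and MAX proteins are known to bind, occurred in 1, another GATA3 start, and in 7.26% of the 35116 windows of the table. CAGCTG occurred in windows of GATA2, GATA3 and ISL1 and in 18.0% of all windows. CAGATG occurred in 14.7%, AGATAA in 10.3% and TAATTA in 4.84% of all windows. A match describes letters only, and binding was not analysed here.

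Genes known to work with these factors were followed on EXOSC10 depletion in lists, beside a background of 13.7% of all genes tested called lower and 13.5% called higher. Of 17 other adrenergic factors tested, 12 fell and 1 rose (median log2 change -0.45, against -0.00 over all genes). SOX4, a relative of SOX11, fell from 177 ± 4.62 to 68.7 ± 4.80 CPM (log2 change -1.37, SE 0.06, edgeR adjusted p = 1.17e-30), a larger fall than that of SOX11. EYA1, a transcriptional coactivator and phosphatase, fell by 1.18 on the log2 scale. TBX3, the nearest relative of TBX2, was the rise, from 17.4 ± 2.05 to 40.9 ± 2.92 CPM (log2 change 1.23, SE 0.10, edgeR adjusted p = 1.37e-16). The relatives HAND1 and SOX12 fell by 0.45 and 0.26 on the log2 scale, beside 0.68 for HAND2 and 0.22 for SOX11 (tests of these differences were not run). ISL2, NHLH2 and TBX4 were not called.

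The last list held dimer partners, cofactors and inhibitors of these factors. Of 15 partners and inhibitors tested, 5 fell and none rose (median log2 change -0.16). Over all genes tested, 13.7% fell and 13.5% rose, 27.1% called in either direction. With only 15 genes tested, the count says little about this list. TCF4, an E protein that pairs with HAND2 and NHLH1, fell from 401 ± 14.5 to 289 ± 7.04 CPM (log2 change -0.47, SE 0.05, edgeR adjusted p = 7.64e-14). SSBP3, which binds the LIM cofactor LDB1, fell by 0.36, and LMO4, a LIM-only protein, by 0.33. TCF12, another E protein, and ID2, an inhibitor of E proteins, fell by 0.29 and 0.65.

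The effector genes of the adrenergic state moved in both directions. Of 17 tested, 9 fell and 5 rose (median log2 change -0.17), where 13.7% of all genes fell and 13.5% rose. DLK1, a Notch pathway ligand, fell by 2.42, CHGA, a secretory granule protein, by 1.07 and CHRNA3, a nicotinic receptor subunit, by 0.72 on the log2 scale. DBH, an enzyme of noradrenaline synthesis, fell from 177 ± 23.1 to 79.0 ± 3.54 CPM. TH, the first enzyme of that pathway, rose from 0.822 ± 0.0844 to 2.69 ± 0.246 CPM, and a link of either to PHOX2A was not tested. Of 12 mesenchymal factors tested, 2 fell and 1 rose (median log2 change 0.16): TWIST1 fell by 1.05, and TBX18, a T-box factor, rose by 2.93 from 3.65 ± 1.69 CPM. DBH and TH were named after their values were seen.

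**Figure D4:**
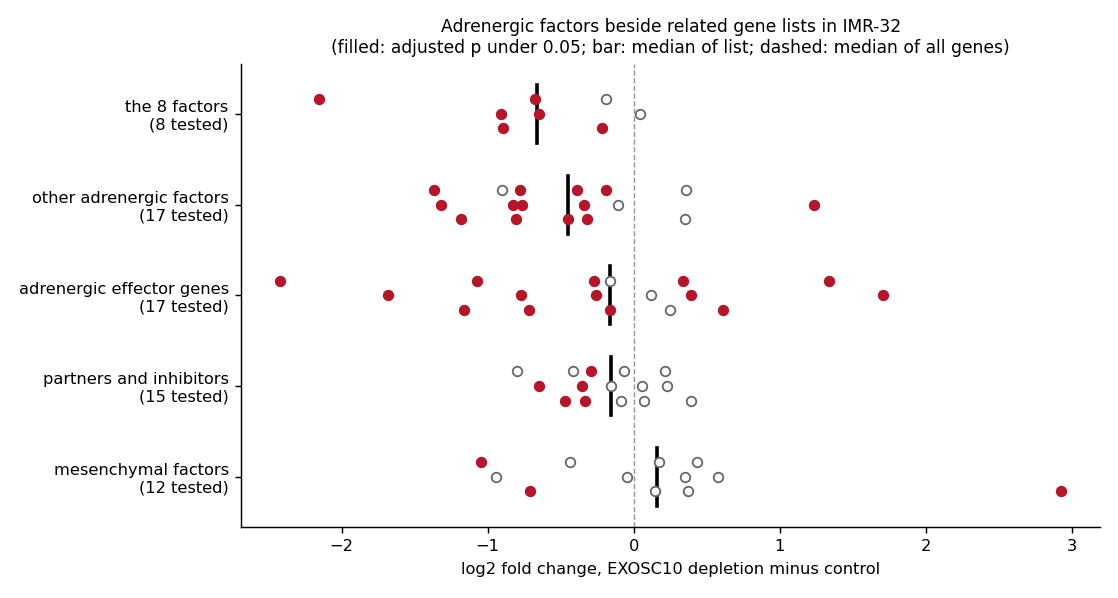
Log2 fold change on EXOSC10 depletion of each tested gene in 5 lists, filled where the edgeR adjusted p is under 0.05, with a bar at the list's median. The 8 factors have the lowest median, -0.66, and NHLH1 is the lowest point of their row at -2.16.

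In SHEP, 5 of the 8 factors passed the filter on low counts, and PHOX2A, SOX11 and NHLH1 did not. Without the filter, edgeR called none of these 3 in any SHEP comparison (adjusted p = 0.365 to 1), and none had an unadjusted p under 0.05. In the libraries labelled wild type MYCN, TBX2 and GATA2 were called higher than in those labelled no MYCN and none was lower, where 22.2% of the 14923 genes tested were called, 10.9% higher and 11.3% lower, and 37.5% had ranges without overlap. The median over the 5 was 0.25, against -0.00 over all genes. TBX2 was at 25.6, 33.2 and 34.7 CPM without MYCN and at 49.1, 44.7 and 47.4 CPM in the libraries labelled wild type MYCN. These ranges did not overlap, and the log2 difference was 0.60 (SE 0.13, edgeR adjusted p = 0.00141), called under all 12 alternatives.

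GATA2 was at 57.4, 47.2 and 55.1 CPM in the libraries labelled no MYCN and at 67.6, 61.6 and 65.2 CPM in those labelled wild type MYCN, again without overlap. Its log2 difference was 0.28 (SE 0.10, edgeR adjusted p = 0.0488), close to the threshold and lost in 8 of 12 alternatives. The adjusted p was 0.149 with library totals, 0.0744 without the filter and 0.0506 with only the pair of groups in the fit. Without no MYCN replicate 2 or 3 it was 0.259 or 0.0831, and without wild type replicate 1, 2 or 3 it was 0.0995, 0.0574 or 0.0923. HAND2 lay just on the other side. It was at 56.1, 61.1 and 62.9 CPM and then at 68.2, 71.4 and 75.1 CPM (log2 difference 0.25, SE 0.09, edgeR adjusted p = 0.0514), and it was called without wild type replicate 1 (0.0344), with the replicate number as a block (0.0177), with DESeq2 size factors (0.0457) and by DESeq2 (0.0315). GATA3 at 8.16 ± 0.298 and 7.94 ± 0.930 CPM (adjusted p = 0.901) and ISL1 at 4.22 ± 1.06 and 4.03 ± 1.00 CPM (adjusted p = 0.872) were not called by edgeR.

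In the libraries labelled MYCN 3A none of the 5 factors was called against no MYCN, where 25.5% of genes were called, 12.7% higher and 12.8% lower, and 41.3% had ranges without overlap. By edgeR 1 of the 5 had an unadjusted p under 0.05, and DESeq2 called 1 (adjusted p = 0.0265). That gene was HAND2, at 68.2, 71.7 and 74.1 CPM, all above the libraries labelled no MYCN (log2 difference 0.25, SE 0.09, edgeR adjusted p = 0.0508). It was called without 3A replicate 1 (0.0458), with the replicate number as a block (0.0181), with DESeq2 size factors (0.0389) and with only the pair of groups in the fit (0.0378). TBX2 was at 28.3, 36.7 and 35.6 CPM (log2 difference 0.11, SE 0.13, adjusted p = 0.589) and GATA2 at 44.9, 50.8 and 49.7 CPM (-0.14, SE 0.10, adjusted p = 0.349), both within or overlapping the range without MYCN. ISL1 and GATA3 differed by 0.22 (SE 0.26) and 0.04 (SE 0.18). The comparisons of both MYCN forms share the no MYCN libraries.

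The MYCN forms were compared directly as well. In this comparison 30.3% of genes were called, 15.8% higher and 14.5% lower in the libraries labelled wild type, and the ranges of 40.4% did not overlap. GATA2 and TBX2 were the called members, both higher with the wild type label. GATA2 differed by 0.42 (SE 0.10, edgeR adjusted p = 0.00359) and TBX2 by 0.49 (SE 0.13, edgeR adjusted p = 0.00558), called under all 12 alternatives, and neither gene's ranges overlapped. HAND2 was at 71.6 ± 3.41 and 71.4 ± 2.95 CPM, with a log2 difference of 0.00 (SE 0.09, adjusted p = 0.979). EXOSC10 moved in the same libraries: it was at 93.2 ± 11.6 CPM with the wild type label and 61.5 ± 4.02 CPM with the 3A label (log2 difference 0.60, SE 0.11, edgeR adjusted p = 2.50e-04). Without MYCN it was at 81.1 ± 10.53 CPM, and the 3A label differed from that by -0.40 (edgeR adjusted p = 0.00955), a call lost without no MYCN replicate 1 (0.0787) or 3A replicate 2 (0.0565). CD68, the only leukocyte marker with enough counts to be tested in SHEP, moved in the same direction, at 15.6 ± 0.738 CPM with the wild type label and 11.1 ± 1.87 CPM with the 3A label (log2 difference 0.49, SE 0.16, edgeR adjusted p = 0.0226). That call was lost without wild type replicate 2 (0.0799) or 3A replicate 2 or 3 (0.110 or 0.0699). Summed over the 5 leukocyte markers, the levels were 15.4 to 16.6 and 9.49 to 13.3 CPM, and PTPRC, which defines leukocytes, had 4, 0 and 0 counts with the wild type label and 2, 0 and 0 with the 3A label. The part of EXOSC10 and of CD68 in the levels of GATA2 and TBX2 was not tested.

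The opposite-strand genes were followed in SHEP as well. TBX2-AS1 was at 6.57 ± 0.525, 5.52 ± 1.12 and 7.81 ± 0.815 CPM with the labels no MYCN, wild type and 3A. GATA2-AS1 was at 6.68 ± 0.832, 6.24 ± 0.989 and 5.05 ± 1.72 CPM, and HAND2-AS1 at 7.15 ± 1.04, 7.18 ± 0.939 and 7.16 ± 0.893 CPM. TBX2-AS1 differed by -0.50 between the forms (SE 0.21, edgeR adjusted p = 0.0700), against 0.49 for TBX2. Among the 8 neighbours tested in SHEP, NCSTN, BCAS3 and INPPL1 passed the test in at least 1 comparison. TBX2-AS1, GATA2-AS1 and HAND2-AS1 did not. Of all genes tested, 22.2% were called for wild type against no MYCN, 25.5% for 3A against no MYCN and 30.3% between the forms. The count therefore says little about the neighbours. INPPL1 was at 99.8 ± 5.91, 97.6 ± 14.2 and 71.8 ± 4.61 CPM.

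Over the 5 groups, the factors ordered the groups in several ways. PHOX2A, GATA3, ISL1, SOX11, NHLH1 and HAND2 were highest in the IMR-32 controls, next in the depleted group and lowest in SHEP, without overlap between these steps. Ranges did not overlap in 38.4% of all genes tested on depletion and in 88.6% of those tested between the lines. The share of all genes with the whole order was not computed. Within SHEP, the neighbouring groups of PHOX2A, GATA3, ISL1, SOX11 and NHLH1 overlapped. For HAND2 the libraries labelled wild type and 3A overlapped and lay above those labelled no MYCN. For TBX2 both IMR-32 groups overlapped, then the wild type label stood apart, and the labels 3A and no MYCN overlapped. For GATA2 the wild type label was highest, the labels no MYCN and 3A overlapped, and both IMR-32 groups overlapped at the bottom. The summed level of the 8 factors was 2313 to 2432 CPM in the controls, 1612 to 1676 CPM after depletion and 154 to 198 CPM over the SHEP libraries.

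Relatives and partners of the factors were called in both directions in SHEP. Of all genes tested for the wild type label against no MYCN, 22.2% were called, 10.9% higher and 11.3% lower. With the wild type label against no MYCN, 4 of 10 other adrenergic factors were higher and 2 lower. SOX4 was lower, at 37.1 ± 1.53 and 20.0 ± 3.60 CPM (log2 difference -0.89, SE 0.13, edgeR adjusted p = 2.38e-05), and TBX3 was higher, at 8.50 ± 1.16 and 17.4 ± 5.91 CPM (1.03, SE 0.20, edgeR adjusted p = 6.27e-04), so TBX2 and TBX3 were both higher. SATB1, a chromatin organizer, was higher by 0.64. Of 15 partners and inhibitors, 3 were higher and 5 lower: ID2 and SSBP2 were lower by log2 differences of -1.08 and -1.31, and TCF3, an E protein, was higher by 0.41. Of 16 mesenchymal factors 5 were higher and 1 lower, with FOSL1 at 1.36, FOSL2 at 0.52 and RUNX1 at 0.55. The 3 effector genes with enough counts, CHGB, GCH1 and SCG2, differed by -1.30, -0.41 and -0.12 without passing the test, and 12 of the 20 had 0 counts in the libraries labelled no MYCN.

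With the 3A label against no MYCN, where 12.7% of all genes were called higher and 12.8% lower, 1 of 10 other adrenergic factors was called, SATB1 at -0.58, a call lost without no MYCN replicate 1 (edgeR adjusted p = 0.104). Of the relatives, GATA6 was lower by a log2 difference of -0.86 (SE 0.30, edgeR adjusted p = 0.0378), lost without any 1 of the libraries labelled no MYCN or without 3A replicate 1 or 2 (0.0564 to 0.156). SSBP2 was lower at -1.13 and SSBP4 higher at 0.48. TCF12 was lower at -0.44, lost without no MYCN replicate 1 or 2 or 3A replicate 2 or 3 (0.0576 to 0.144). Of 16 mesenchymal factors 3 were higher and 5 lower, with YAP1 and NOTCH2 at -0.56 each. Between the forms, where 15.8% of all genes were called higher and 14.5% lower, SOX4 was lower with the wild type label at -1.19, and SATB1 and TBX3 higher at 1.21 and 1.26. TCF4 was higher at 0.62, ID1 and ID2 lower at -0.44 and -0.85, and SOX12 lower at -0.40. FOSL1, FOSL2 and NOTCH2 were higher at 1.11, 0.92 and 0.81, and the effector GCH1 was lower at -0.53 (edgeR adjusted p = 0.0299), lost without wild type replicate 1 or 2 or 3A replicate 2 or 3 (0.0597 to 0.133) and without the filter (0.0554).

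Over the 5 groups, the genes whose profile came closest to each factor were found by the distance between centred mean log2 CPM values, among 12103 genes. These distances describe 5 group means and share the same libraries, so no test was made. The closest profile to HAND2 was EFNA5, an ephrin ligand, at a distance of 0.13, and then SIX3, a homeobox factor of the adrenergic list, at 0.27. NHLH1 lay farthest from its closest gene among the 8, with CERKL at 0.48 and the neuroendocrine zinc finger factor INSM1 at 0.90. INSM1 went from 46.8 ± 2.46 to 18.7 ± 1.85 CPM on EXOSC10 depletion. That fall is part of the profile by which INSM1 was chosen, so it is not a separate result. The SHEP means of PHOX2A, SOX11 and NHLH1 rest on trace counts. PHOX2A lay closest to IGFBPL1 and FOXRED2 (0.40 and 0.51), GATA3 to ALDOC and MEIS1 (0.41 and 0.43) and SOX11 to ELAVL3 and CHRNB2 (0.34 and 0.41). The nearest genes to TBX2 were NPIPA9 and LINC00265 (0.13 and 0.15), to ISL1 LBX2-AS1 and NSUN5P1 (0.14 and 0.17), and to GATA2 the pseudogenes YBX1P1 and HMGN2P5 (0.19 and 0.24). NPIPA9 and the pseudogenes belong to families of near-identical copies, so their counts are uncertain.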

How the data were processed

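The authors deposited raw counts per gene in a table for each line, without normalization. Per the submitters' processing notes the tools included STAR 2.7.10a and featureCounts 2.0.3 on hg19. Per the file headers of the SHEP table, featureCounts used Ensembl 87 models, strand setting 2 and a minimum overlap of 10 bases, and counted a read for every gene it overlaps. The IMR-32 table states no settings and has the same gene models. Symbols matched 51996 of 57905 gene IDs, and the other 74 of 89 samples were not analysed here. DACH1 and PECAM1 had no matched row.

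Each IMR-32 column was matched to its sample through the ethanol or doxycycline tag and the replicate number in its header. Genes were filtered with filterByExpr, scaled with TMM and tested with the robust quasi-likelihood test of edgeR 4.0.16 (limma 3.58.1, R 4.3.3), adjusted by Benjamini-Hochberg over all tested genes, threshold 0.05, all SHEP groups in one fit. Scripts were tested on simulated data. SE is the log2 change divided by the root of F. CPM used TMM factors within each table, RPKM the union exon length, and log2 CPM a prior count of 2. Alternatives were DESeq2 1.42.0, its size factors, library totals, no filter, 2 groups only, a replicate block and each library left out.

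Members, lists and tests were chosen with earlier results of these data known. Named are the members, EXOSC10, MYCN, genes within 10 kb, relatives, the 3 called genes of smallest p of each list and comparison, and the 2 closest profiles. Some genes that this rule names are not reported here. Same-numbered libraries of different groups had deviations from their group means correlated at 0.0258 to 0.0442 in IMR-32 and -0.0319 to 0.133 in SHEP. Different-numbered libraries were at -0.0321 to -0.0114 in IMR-32, all below the same-numbered ones, and at -0.129 to 0.0623 in SHEP, where the ranges overlapped. The main fits did not take the numbers as pairs, and fits with the number as a block are given below.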

Additional observations from a re-analysis of the deposited data

Results flagged for a closer look

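The change of GATA2 relative to the libraries labelled no MYCN differed between the MYCN labels, by a log2 difference of 0.42 in the direct test between the forms (edgeR adjusted p = 0.00359). GATA2 was higher by 0.28 with the wild type label and differed by -0.14 with the 3A label, the latter not called. TBX2 was marked by the same test, with a difference of 0.49 (edgeR adjusted p = 0.00558), from 0.60 with the wild type label and 0.11 with the 3A label. All 3 wild type libraries lay above all 3 libraries labelled 3A in both genes. MYCN counts were at most 10 in these libraries, so the groups rest on the labels.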

How the results depend on the processing

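The 6 falls on EXOSC10 depletion, the 8 differences between the lines and the 2 differences between the MYCN labels kept direction and call under every alternative run. Of the values of single genes under alternatives, 1412 kept direction and call, 29 lost the call, 13 gained it and 15 changed sign.

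The replicate numbers were not taken as pairs. With the number as a block, the count of called genes went from 4639 to 5251 on depletion, from 3315 to 4184 for wild type against no MYCN, from 3806 to 4794 for 3A against no MYCN and from 4527 to 5414 between the forms. Leaving out 1 library gave 3810 to 4386, 2313 to 3458, 2166 to 3616 and 3261 to 4901 in the same order, and 15434 to 15961 for the lines against 15526. The counts for 3A were 2166 and 2508 without no MYCN replicate 1 and 2.

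Of the factors called higher with the wild type label, 2 became 3 with the block, with DESeq2 size factors and with DESeq2, 1 with library totals, without the filter and with only the groups compared, and 1 to 2 with a library left out. With the 3A label, 0 became 1 with the block, DESeq2 size factors, DESeq2 and only the groups compared, and 0 to 1 with a library left out. The factor gained was HAND2. With library totals, 35.1% of calls for wild type and 29.6% for 3A were higher, against 49.3% and 49.7%, and the median of all genes for 3A moved from -0.04 to -0.14.

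Signs changed where the difference was small. With a library left out, the log2 change spanned -0.44 to 0.063 for GATA2 on depletion. For wild type against no MYCN it spanned -0.0912 to 0.050 for GATA3, -0.27 to 0.075 for ISL1 and -0.11 to 0.28 for ISL2. TBX2 for 3A spanned -0.019 to 0.22. Between the forms it spanned -0.031 to 0.039 for HAND2, -0.16 to 0.0065 for GATA3 and -0.16 to 0.055 for GATA4, and between the lines -0.28 to 0.10 for ISL2. GATA3 for 3A was -0.057 with library totals, HAND2 between the forms -0.0051 with DESeq2 and its size factors, and ISL2 between the lines 0.0039 with library totals. The causes were not tested. Depth limited GATA2 in IMR-32 and, in SHEP, PHOX2A, SOX11 and NHLH1, which the filter left out and which were not called without it.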
